A study of Mus musculus with 3 samples.

Results

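Bidirectional promoters are regions in which 2 protein-coding genes on opposite strands start close together and are transcribed away from each other. Members were all pairs of protein-coding genes in the GENCODE mouse annotation (build mm10) that lie head to head with their annotated 5′ ends at most 1000 bp apart. Of 21938 annotated protein-coding genes, 1487 (6.78%) belonged to the 754 pairs found in this way, at 733 separate loci, and 42 pairs shared a gene with another pair. The region of a pair was the interval between the starts plus 500 bp on each side. For comparison, 19174 single-gene promoters were taken, whose start has no other protein-coding start within 1000 bp. Their window of 1130 bp has about the length of the median pair region.

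The measurement was DNase-seq: the enzyme DNase I cuts DNA where it is accessible, and the ends of the cut pieces are sequenced. All 3 libraries, labelled as biological replicates 1 to 3, came from liver tissue of embryos aged 13.5 days. They form 1 group, of strain C57BL/6N,129, whose label gives an HS2 HS3 deletion and a HOM globin mutation. HS2 and HS3 are known as hypersensitive sites of the locus control region of the β-globin genes. Every library thus carries the deletion, and no unaltered liver is analysed here. The labels give a separate biosample for each replicate but 1 donor entry for all 3, so the spread between replicates may not be that of independent animals.

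Each library came with a shorter and a longer peak list, and the shorter one had 28209, 57314 and 41319 entries for replicates 1 to 3. A promoter was called open in a replicate where such a peak overlapped its region. The depth-normalised cut densities imply depths of 79.4, 119.5 and 132.7 Mcuts (1 Mcut being 1000 times 1000 cuts), although no file used here states them. Of the markers checked for the labelled tissue, 9 of 10 red cell precursor promoters were open in all 3 replicates, against 1 of 8 for hepatoblasts (Cebpa). Among all single-gene promoters the share was 40.8%. Some other hepatoblast promoters had a peak in part of the replicates, namely Ttr in replicates 1 and 2 and Hnf4a, Apoa1 and Foxa2 in replicate 2. Those of macrophages (4), endothelial cells (4), the neutrophil lineage (3) and muscle (3) had no promoter open in all 3, and Grin1 was open among 3 neuronal genes. Of these, Cd68 had a peak in replicate 2, Kdr in replicates 2 and 3 and Ckm in replicates 1 and 2. Alb and Afp, which define hepatoblasts, had no peak in any replicate. In bulk tissue, fewer cells of a type and less accessibility per cell cannot be told apart.

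Transcription from a bidirectional promoter starts at separate sites on the 2 strands, and the stretch between them holds binding sites that can serve both genes. Such promoters are usually rich in CpG dinucleotides, lack a TATA box and are common among housekeeping genes, in particular those for DNA repair, mitochondria and ribosomes. In chromatin the stretch between the starts is kept free of nucleosomes, which makes it sensitive to DNase I. A footprint is a short stretch inside such a region that is cut less than its surroundings, as happens where a protein covers the DNA.

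The intervals between the starts of 8 open pairs are printed first, because they show how much of this short sequence is covered by footprints. They were read from GRCm38.p6, the RefSeq assembly of the same build, on the plus strand. The first base follows the start of the minus-strand gene and the last base precedes the start of the plus-strand gene. No annotated exon lies in any of them. Capitals mark bases inside footprints of all 3 replicates.
Pdhx/Apip: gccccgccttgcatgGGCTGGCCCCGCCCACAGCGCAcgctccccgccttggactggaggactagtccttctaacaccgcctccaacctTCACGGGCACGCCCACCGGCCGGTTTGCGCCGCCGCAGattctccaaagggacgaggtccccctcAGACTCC
Nfya/Oard1: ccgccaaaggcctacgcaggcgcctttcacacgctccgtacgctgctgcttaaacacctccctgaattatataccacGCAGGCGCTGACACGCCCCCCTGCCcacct
Med22/Rpl7a: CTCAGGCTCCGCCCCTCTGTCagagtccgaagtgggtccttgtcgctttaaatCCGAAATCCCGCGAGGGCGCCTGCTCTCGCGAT
Mrps18b/Ppp1r10: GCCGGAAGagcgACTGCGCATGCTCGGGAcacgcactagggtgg
Ndufaf2/Ercc8: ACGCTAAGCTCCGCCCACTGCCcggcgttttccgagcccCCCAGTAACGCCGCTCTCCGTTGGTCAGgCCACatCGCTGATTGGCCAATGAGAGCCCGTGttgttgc
Osgep/Apex1: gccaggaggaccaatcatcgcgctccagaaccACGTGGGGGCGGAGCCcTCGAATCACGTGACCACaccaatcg
Xpc/Lsm3: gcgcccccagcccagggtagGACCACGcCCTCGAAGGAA
Rad51c/Tex14: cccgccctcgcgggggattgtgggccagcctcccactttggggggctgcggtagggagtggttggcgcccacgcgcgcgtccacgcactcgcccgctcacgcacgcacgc
Pdhx/Apip (chr2:103073514-103073674) and Nfya/Oard1 (chr17:48409907-48410013) had the strongest peaks of all pairs. Med22/Rpl7a (chr2:26910678-26910763) and Mrps18b/Ppp1r10 (chr17:35916390-35916433) hold genes for ribosomal proteins of the cytosol and the mitochondrion. Ndufaf2/Ercc8 (chr13:108158624-108158730), Osgep/Apex1 (chr14:50924894-50924967), Xpc/Lsm3 (chr6:91515889-91515927) and Rad51c/Tex14 (chr11:87404955-87405064) hold genes of DNA repair. Between Ndufaf2 and Ercc8, 80 of 107 bases (74.8%) lay in footprints of all 3 replicates. The share was 62.8% between Med22 and Rpl7a, 56.8% between Mrps18b and Ppp1r10, and 41.6% between Pdhx and Apip. Between Rad51c and Tex14 there was no footprint in any replicate. The strongest peak of that pair, with 10.2, 13.2 and 10.5, was centred 469, 459 and 469 bp from the midpoint of the starts on the side of Rad51c, and the starts lay in a peak in replicate 1 only. In the interval of Mrps18b and Ppp1r10 the ETS motif CCGGAA at bases 2 to 7 lay whole inside a footprint. The E-box CACGTG at bases 56 to 61 of the Osgep/Apex1 interval did so too, while its copy at bases 32 to 37 was covered for 5 of 6 bases.

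The starts of 4 pairs without a peak are printed for contrast. These were chosen after their values were seen.
Col4a4/Col4a3: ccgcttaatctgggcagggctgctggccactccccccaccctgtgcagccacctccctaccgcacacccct
Rnf151/Rps2: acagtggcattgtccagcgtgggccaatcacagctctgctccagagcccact
Best1/Rab3il1: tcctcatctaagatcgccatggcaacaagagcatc
4930430F08Rik/1700017N19Rik: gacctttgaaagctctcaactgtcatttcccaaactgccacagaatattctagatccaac
These intervals lie at chr1:82586850-82586920, chr17:24718064-24718115, chr19:10001634-10001668 and chr10:100590424-100590483, and no base of them lay in a footprint in any replicate. Their own CpG ratios were 0.290, 0.222, 0.530 and 0, and those of the 8 open intervals ran from 0.609 (Xpc/Lsm3) to 1.12 (Med22/Rpl7a). The interval of Ppp1r3d/Fam217b, another closed pair, had a ratio of 1.21, so a low ratio between the starts was not shared by every closed pair. Nor was it confined to closed pairs. The intervals of Mrpl32/Psma2 and Mospd2/Fancb, both open in all 3 replicates, had ratios of 0.316 and 0.429.

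Nearly all bidirectional promoter regions held a peak in this tissue. A peak anywhere in the region counts, also away from the starts. Of open pairs, 25.5% ± 0.91 (SD, n = 3) had a peak over 1 start only and 5.94% ± 0.99 over neither. Of the 754 pairs, 695, 704 and 707 had a peak in replicates 1 to 3 (93.1% ± 0.83, SD, n = 3). In all 3 replicates 694 pairs were open, a share of 92.0% (95% exact Clopper-Pearson interval 89.9% to 93.9%, for counting error over pairs only). Of the single-gene promoters 41.5%, 47.4% and 45.5% were open in replicates 1 to 3, and 40.8% in all 3. The difference was 50.7, 45.9 and 48.3 percentage points (mean 48.3 ± 2.4, SD, n = 3). It had the same sign in each replicate, but an exact two-sided sign-flip permutation test over 3 replicates cannot go below p = 0.25, which was its value here. The same p was found for each of the 6 main contrasts, which are given as share, signal, width, peaks, footprints and far against near pairs, and Benjamini-Hochberg adjustment leaves it as it is. Without annotated non-coding starts within 1000 bp, 38.1% of single-gene promoters were open in all 3 replicates, and with one 66.8%. Pairs whose 5′ ends overlap by up to 1000 bp, which are not members, were open at 87.5% of 457.

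CpG content, which differed strongly between the classes, accompanied these shares. The CpG observed/expected ratio is the number of CpG dinucleotides over the number that the C and G content would give. Its median was 0.761 in pair regions and 0.466 in single-gene windows, and 84.2% of pairs against 39.2% of single-gene promoters reached 0.6. At a ratio of 0.8 and above, 282 of 287 pairs (98.3%) were open in all 3 replicates, against 86.0% of single-gene promoters. Between 0.6 and 0.8 the shares were 96.8% and 75.5%, and between 0.4 and 0.6 they were 82.8% and 48.0%. Below 0.4 only 3 of 32 pairs were open in all 3 (9.38%), against 4.80%. With single-gene promoters weighted to the CpG strata of the pairs, the mean difference in the share open was 15.6 percentage points instead of 48.3. The part that base composition has in the remaining difference was not tested.

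**Figure D1:**
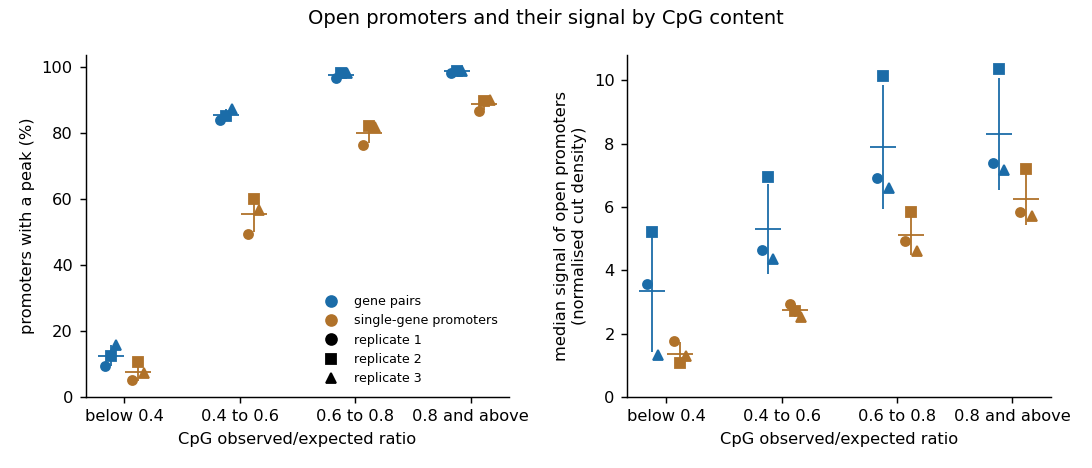
Share of promoters with a peak (left) and median signal of open promoters (right) against the CpG observed/expected ratio, for gene pairs (blue) and single-gene promoters (brown). Symbols are the 3 replicates, horizontal marks their mean and vertical lines 1 SD; pairs lie above single-gene promoters of the same CpG class in the mean, by 9.9 percentage points in the CpG-richest class, and only 32 pairs fall in the CpG-poorest one.

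Open bidirectional promoters also had stronger peaks. The signal is the highest cut density in a peak, which the authors normalised to depth, and each region takes its strongest peak. The median over open pairs was 6.84, 9.78 and 6.67 in replicates 1 to 3, against 4.56, 4.75 and 4.11 for open single-gene promoters. The difference of the medians on the log2 scale was 0.58, 1.04 and 0.70 (mean 0.77 ± 0.24, SD, n = 3, p = 0.25, exact sign-flip permutation test). Within CpG strata it was 0.40 ± 0.11 at 0.8 and above, 0.60 ± 0.17 from 0.6 to 0.8, and 0.93 ± 0.37 from 0.4 to 0.6. Pairs in the 3 upper strata were higher in each replicate. With only the stronger 50% of the shorter list the mean difference over all promoters was 0.45.

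Replicate 2 gave higher values at pairs than the others. It had the highest signal of the 3 libraries at 608 of 694 pairs open in all 3 (87.6%). The median ratio of replicate 2 to replicate 1 was 1.43 at pairs and 1.26 at single-gene promoters, while that of replicate 3 to replicate 1 was 0.992 at pairs. Across open pairs the log2 signals of replicates 1 and 3 had a Pearson r of 0.973, those of 1 and 2 of 0.910, and those of 2 and 3 of 0.930, as a description over regions that share a library. The mean log2 difference without replicate 2 was 0.64.

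Peaks covered more of the pair regions and held more footprints. Peaks covered 373 ± 23 bp of an open pair region and 314 ± 16 bp of an open single-gene window, a difference of 65.9, 51.9 and 59.1 bp in replicates 1 to 3. An open pair had 1.51 ± 0.026 peaks and an open single-gene promoter 1.36 ± 0.014, and 42.0% of open pairs against 31.1% of single-gene promoters had more than 1. Open pairs held 9.24 ± 0.52 footprints, against 6.55 ± 0.28, a difference of 2.23, 3.26 and 2.57. The number of footprints per 100 bp of peak-covered bases was 2.49 ± 0.29 at open pairs and 2.09 ± 0.11 at open single-gene promoters. This ratio counts every footprint centred in the region, also those outside peaks, so it is not a density within peaks. The contrasts in width, peaks and footprints had the same sign in each replicate and p = 0.25 in the exact sign-flip permutation test. A pair region holds 2 starts, and the differences in width and peak number shrank when each paired gene was taken by its own start with 500 bp on each side, a setting added after the data were seen. The difference was then 32.4 bp in width, 0.075 in peaks and 2.24 in footprints. With single-gene promoters weighted to the CpG strata of the pairs, it was 0.101 in peaks. Within CpG strata the width difference was 24.5 ± 11.1 bp at 0.8 and above, 59.7 ± 6.8 bp from 0.6 to 0.8 and 48.0 ± 12.2 bp from 0.4 to 0.6. The footprint difference was 1.82 ± 0.37, 2.42 ± 0.36 and 2.07 ± 0.59 in the same order. Below 0.4 the width difference had no common sign, at 25.8, 15.7 and -34.6 bp. Against single-gene windows of matched length, pairs with starts up to 100 bp apart exceeded by only 12.3 ± 3.4 bp in width and 0.029 ± 0.030 in peaks, and pairs over 500 bp apart by 193 ± 12 bp and 0.530 ± 0.012. The ratio of footprints to peak-covered bases in the latter differed by -0.012, 0.183 and -0.025 per 100 bp in replicates 1 to 3, with no common sign.

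Around each gene's own start, the difference in footprint cover between the classes was largest upstream. In promoters open in all 3 replicates, footprints covered 32.2% ± 3.5 of the first 100 bp upstream of a paired gene's start and 26.4% ± 2.8 upstream of a single gene's start. Over the next 200 bp upstream they covered 18.1% ± 2.7 and 10.5% ± 1.7, and peaks covered 46.5% ± 3.1 and 30.5% ± 0.54. This upstream stretch of a paired gene often reaches into its partner. In the first 100 bp downstream, footprint cover was 21.7% ± 3.3 and 18.9% ± 2.1, and peak cover was 63.8% ± 4.3 and 67.0% ± 3.4. Peak cover in that stretch was lower at pairs than at single genes in each of the 3 replicates.

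**Figure D2:**
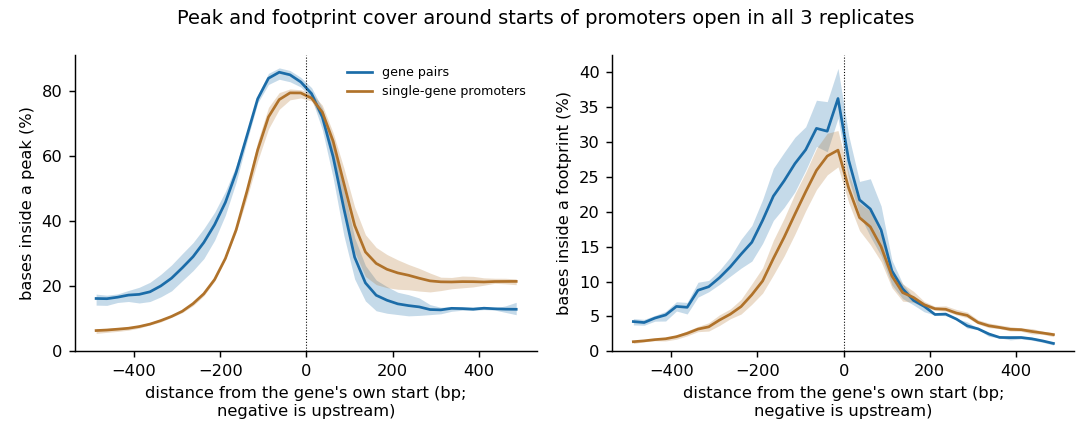
Percent of bases inside a peak (left) and inside a footprint (right) in bins of 25 bp against the distance from each gene's own start, for 694 open pairs (blue, both genes) and 7832 open single-gene promoters (brown). Lines are the mean of 3 replicates and bands run from the lowest to the highest; the blue lines lie above the brown ones upstream, and below them beyond the first 100 bp downstream for peaks.

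Footprints covered more of the interval between the starts than of the adjoining genes, except in pairs over 500 bp apart. In open pairs with starts over 50 bp apart (n = 568), footprints covered 25.8% ± 3.3 of the interval and 20.7% ± 3.2 of the first 100 bp of both genes. At starts up to 100 bp apart the interval was covered at 38.0% ± 3.9, and the first 100 bp of the genes at 24.8% ± 3.6. Over 300 and up to 500 bp apart the values were 26.7% ± 4.3 and 16.7% ± 2.7. Over 500 bp apart they were 12.4% ± 1.5 and 12.6% ± 1.5. There the interval was covered less in each replicate, at 10.92%, 13.85% and 12.48% against 11.04%, 13.95% and 12.71%. Peaks covered 66.5% ± 1.0 of the interval and 59.1% ± 4.8 of the first 100 bp of the genes over all 568 pairs. Peak cover was 93.9% and 74.9% at up to 100 bp, and 39.3% and 50.4% over 500 bp apart. The part of peak cover in the footprint differences was not tested.

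The distance between the starts went with the number of peaks. The median distance was 129.5 bp (quartiles 67 and 240 bp), and 82.0% of pairs lay within 300 bp. Open pairs had 1.38 ± 0.034 peaks at up to 100 bp, 1.43 ± 0.029 at up to 200 bp, 1.66 ± 0.011 at up to 300 bp, 1.79 ± 0.016 at up to 500 bp and 1.95 ± 0.035 beyond, each class starting where the one before it ends. The farthest class exceeded the nearest by 0.558, 0.567 and 0.588 peaks in replicates 1 to 3 (p = 0.25, exact sign-flip permutation test). Single-gene windows stretched to the same lengths differed by only 0.052, 0.085 and 0.072. The width covered by peaks was 198 ± 11 bp larger in the farthest class than in the nearest, against 13.4, 21.3 and 19.3 bp in the stretched single-gene windows.

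One peak usually lay over both starts of close pairs, and separate peaks appeared with distance. At up to 100 bp, both starts lay in the same peak in 90.9% ± 1.3 of open pairs. In the following classes the share was 63.5% ± 3.1, 32.6% ± 2.7, 13.8% ± 3.3 and, at over 500 bp, 0%. The strongest peak had a median width of 240 bp in the nearest class and 247 bp in the farthest (means of replicates). A peak of such width cannot hold both starts of a pair over 500 bp apart, so the share there was largely set by peak width. Starts in different peaks made up 11.7% ± 4.9 of open pairs in the class up to 300 bp, 28.04% ± 5.6 in that up to 500 bp and 34.8% ± 7.5 beyond. In the farthest class 53.8% ± 5.4 had a peak over 1 start only. The strongest peak of these far pairs had its centre 338.5 ± 2.3 bp (median) from the midpoint, against 26.8 ± 4.1 bp in the nearest class. The starts of the far pairs lay 671 bp apart in the median, so a peak near either start gives an offset of this size. The median signal did not follow the distance in order, at 6.98 ± 1.1, 8.25 ± 2.1, 8.09 ± 2.1, 8.68 ± 2.4 and 7.28 ± 1.4 from the nearest class to the farthest. The farthest exceeded the nearest by only 0.024, 0.109 and 0.032 on the log2 scale in replicates 1 to 3. Over the 694 pairs open in all 3, Spearman's rho of mean signal with start distance was 0.149, as a description over regions of the same libraries.

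**Figure D3:**
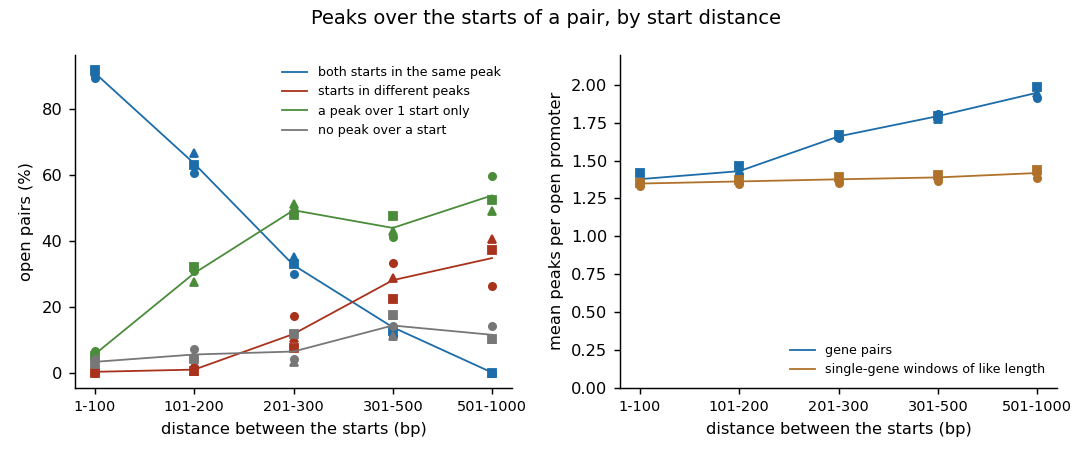
Left, percent of open pairs by how peaks lie over the starts, against the distance between the starts; right, mean number of peaks per open pair (blue) and per open single-gene window of like length (brown). Symbols are replicates 1 (circle), 2 (square) and 3 (triangle) and lines their mean; the share of pairs with both starts in the same peak falls from 90.9% to 0% while the number of peaks rises from 1.38 to 1.95.

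Far pairs were open less often, and they were also poorer in CpG. In all 3 replicates 94.9%, 89.8%, 94.0%, 95.5% and 80.0% of pairs were open from the nearest class to the farthest. Of the 70 pairs over 500 bp apart, 10 had no peak in any replicate. Their median CpG ratio was 0.635, against 0.777 in the nearest class. Among pairs with a ratio of 0.6 or more, 43 of 45 far pairs (95.6%) and 273 of 277 near pairs (98.6%) were open in all 3. Below 0.6 the counts were 13 of 25 far pairs (52%) and 23 of 35 near pairs (65.7%). Just inside the limit of 1000 bp, Btf3l4/Txndc12 (987 bp) had signals of 6.74, 7.75 and 6.24, and Asphd1/Sez6l2 (981 bp) of 5.70, 6.79 and 5.84. Just outside, Gpr108/Trip10 (1009 bp) had 8.11, 11.5 and 9.30, and Serpina7/4930513O06Rik (1007 bp) had no peak.

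The highest mean signal of all pairs, 21.6, was that of Pdhx/Apip. Pdhx encodes a subunit of the pyruvate dehydrogenase complex and Apip an enzyme of methionine salvage. Their promoter had a signal of 18.8, 28.6 and 17.3 in replicates 1 to 3, in a peak of 240 bp that covered both starts in each replicate. Nfya encodes a subunit of NF-Y, the factor that binds CCAAT boxes, and with Oard1 it reached 16.8, 28.9 and 16.2, in a peak that held the start of Nfya in each replicate and that of Oard1 in replicate 1 only. Fam53a/Gm9903 followed with 16.7, 25.3 and 16.5. Slc25a32, a mitochondrial folate carrier, and Dcaf13 had 15.5, 24.2 and 16.2. Tecr, an enzyme of fatty acid elongation, and the chaperone gene Dnajb1 had 13.9, 26.1 and 15.1. In all 5, replicate 2 stood apart and replicates 1 and 3 lay close together.

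The most footprints, by the mean over replicates, were in B3galt6/Sdf4, with starts 223 bp apart and 28, 21 and 25 footprints in replicates 1 to 3. Cep57, a centrosomal gene, and Fam76b lie 609 bp apart and held 18, 24 and 24. Fiz1/Gm44973 (799 bp) held 20, 22 and 23. Cbx5, which encodes the heterochromatin protein HP1α, and Hnrnpa1 lie 616 bp apart and held 18, 30 and 16. Srgap2/Fam72a, 551 bp apart, held 16, 20 and 23, so 4 of these 5 pairs had starts over 500 bp apart, where the regions are also longer. The number of footprints per 100 bp of peak-covered bases, those outside peaks included, was 2.11 in pairs over 500 bp apart (mean). In pairs up to 100 bp apart this ratio was 2.54, and it was higher there in each replicate. The widest peak cover was that of Zbtb25/Zbtb1, a pair of zinc finger genes 664 bp apart, with 1285, 802 and 1286 bp. Its signal was low and even, at 3.48, 3.49 and 3.38, so width and height did not go together. Over the 694 open pairs, Spearman's rho of mean signal with covered width was -0.0046, with footprint number 0.309 and with the CpG ratio 0.196, as descriptions over regions of the same libraries.

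**Figure D4:**
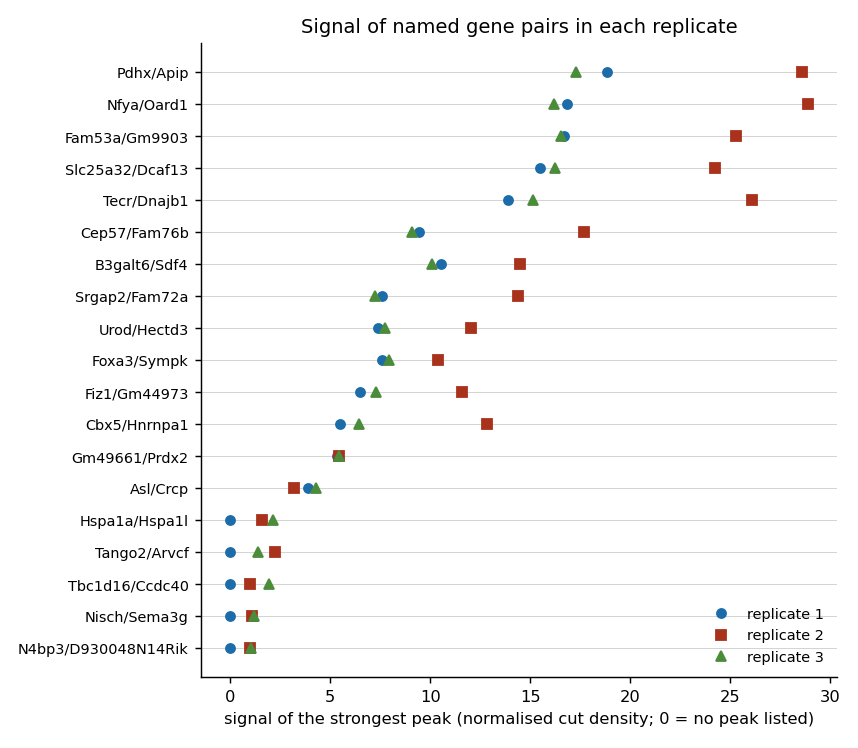
Signal of the strongest peak in each replicate for 19 pairs: the strongest, those with the most footprints, the pairs with a red cell or hepatoblast gene, and pairs with a peak in only some replicates. Each symbol is 1 library and 0 means that no peak was listed; replicate 2 (square) lies to the right at Pdhx/Apip and the other strong pairs, and Gm49661/Prdx2 is level in all 3.

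Genes of DNA replication and repair were often paired. Of the 133 listed genes, 37 (27.8%) belonged to a pair, against 6.78% of all protein-coding genes, and they formed 37 pairs, with Rpa3 and Pms1 in 2 pairs each. Of these pairs 36 were open in all 3 replicates, with a median mean signal of 8.99, against 694 of 754 and 7.83 for all pairs. Atm, the kinase that senses double-strand breaks, and Npat, an activator of histone genes, lie 307 bp apart and had 12.5, 19.7 and 10.8. Mcm4, of the replicative helicase, and Prkdc, the catalytic subunit of DNA-dependent protein kinase, lie 466 bp apart and had 10.8, 18.8 and 8.66. At Atm/Npat 1 peak covered both starts in each replicate, while at Mcm4/Prkdc the starts lay in different peaks in each. Xpc, which recognises damage for excision repair, and the splicing gene Lsm3 had 10.7, 16.6 and 12.0. Gins1, also of the replicative helicase, and Abhd12 had 10.2, 15.5 and 11.1, in a single peak over the start of Abhd12 only. Lig4, the ligase of end joining, had 10.5, 14.6 and 11.1 with Abhd13. The lowest open pairs were Tsc2/Nthl1 with 3.15, 3.66 and 2.91 and Top3a/Smcr8 with 2.90, 4.14 and 2.83. The exception was Pinlyp/Xrcc1, with a CpG ratio of 0.292, whose signal of 0.686 appeared in replicate 3 only.

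Mitochondrial and other housekeeping lists were open almost throughout. All 18 pairs with a gene of the mitochondrial ribosome were open in all 3 replicates, led by Mrps18b/Ppp1r10 with 12.3, 19.2 and 12.2. The strongest peak of that pair was centred 419, 419 and 379 bp from the midpoint of the starts, and another peak covered both starts. All 24 pairs with a respiratory chain gene were open, led by Tepsin/Ndufaf8 with 14.6, 25.2 and 14.7. Uqcrq, of complex III, and Gdf9, an oocyte growth factor, had 10.5, 23.5 and 10.1. The 8 proteasome pairs and 5 aminoacyl-tRNA synthetase pairs were all open, with Mrpl32/Psma2 at 9.29, 14.1 and 9.21 and S100pbp/Yars at 7.91, 13.2 and 7.71. Of 12 chaperone pairs 11 were open, with Cct5/Fam173b, of the cytosolic chaperonin, at 14.8, 16.7 and 13.9. Of 18 pairs with a zinc finger gene 17 were open, led by Zfp654/Cggbp1 with 11.6, 22.1 and 12.7. In the cytosolic ribosome list 7 of 8 were open, with Med22/Rpl7a at 14.4, 21.9 and 14.7. As 92.0% of all pairs were open, these counts lie near the background, and none was tested.

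Replication-dependent histone genes lie in clusters in which H2A and H2B genes often share a promoter, and 27 of the 67 listed (40.3%) were in pairs. The list was made by gene symbol alone, so it may hold histone genes of the clusters that are not replication-dependent. Of 14 such pairs 11 (78.6%) were open in all 3 replicates, against 92.0% of all pairs, and the difference was not tested. Open examples were Hist1h2an/Hist1h2bp at 5.76, 10.5 and 5.88 and Hist2h2ac/Hist2h2be at 4.22, 11.1 and 6.34. Among the 3 without a peak, Hist1h2bq/Hist1h2ao and Hist1h2ap/Hist1h2br had no word of 32 bases in their regions that occurs once in the genome. The third, Hist1h2ba/Hist1h2aa, had 83.5% such words. Open pairs such as Hist1h2an/Hist1h2bp had 45.2%, so repeated sequence did not go with a missing peak in every case.

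Of 59 red cell genes 2 (3.39%) were members and both pairs were open, where 6.78% of all protein-coding genes were members. Urod, an enzyme of heme synthesis, and Hectd3 lie 904 bp apart and had 7.41, 12.0 and 7.73, with the strongest peak on the side of Urod. Prdx2, an abundant antioxidant of red cells, had 5.36, 5.42 and 5.43 with Gm49661, and its values hardly differed between replicates. Of 32 hepatoblast genes 2 (6.25%) were members, a share near that of all genes. Foxa3, a liver transcription factor, and Sympk lie 839 bp apart and had 7.59, 10.4 and 7.94. The peak over the start of Sympk was present in each replicate, while the start of Foxa3 lay in a peak in replicates 2 and 3 only. Asl, of the urea cycle, and Crcp lie 43 bp apart and had 3.89, 3.17 and 4.29.

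Among well-known head-to-head pairs, Atm/Npat and Mcm4/Prkdc were members. The annotated 5′ ends of 6 others overlap, by 21 bp in Col4a1/Col4a2, 111 bp in Hspd1/Hspe1, 163 bp in Surf1/Surf2, 211 bp in Tap1/Psmb9, 271 bp in Ppat/Paics and 341 bp in Sirt3/Psmd13. The rule on separated starts leaves these 6 out.

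The 45 pairs with no peak in any replicate were mostly poor in CpG. Their median ratio was 0.312, against 0.772 in pairs open in all 3, and 27 of the 45 lay below 0.4. No peak of the longer list reached 37 of them either, and 12 had a stretch of bases listed at a false discovery rate under 0.05 in some replicate. At 14 of the 45, a gene of the pair had another annotated start, outside the region, that was open in all 3 replicates. Rps2, a protein of the small ribosomal subunit, is such a gene in the pair Rnf151/Rps2. So is Trim28, a corepressor, in Slc27a5/Trim28. No count of such starts at open pairs is set beside these 14, so they are not shown to be a trait of closed pairs. Among the other closed pairs, picked here without a list or a count, Col4a4 and Col4a3 encode collagens of the kidney basement membrane, Kirrel2 and Nphs1 proteins of the kidney filter, Duox2 and Duoxa2 the oxidase of the thyroid and its maturation factor, and Pecam1 an endothelial adhesion molecule. These examples give no theme of closed pairs. Gdf9, the oocyte growth factor, was in an open pair, and the ribosomal gene Rps2 was in a closed one. Ddx25/Pus3 was the only closed pair with peaks of the longer list in all 3 replicates, at 0.706, 0.435 and 0.580.

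A further 15 pairs had a peak in only 1 or 2 replicates. Replicate 1, with the fewest peaks, listed 1 of them, replicate 2 listed 10 and replicate 3 listed 13, with signals from 0.46 to 2.23. Their signals lay in the lower part of the range of pairs open in all 3, whose mean signals ran from 0.858 to 21.6. In the longer list 9 of the 15 had a peak in each replicate. The stress-inducible chaperone genes Hspa1a/Hspa1l had no peak in replicate 1, and 1.56 and 2.14 in replicates 2 and 3. Tango2/Arvcf had 2.23 and 1.38, and Tbc1d16/Ccdc40 had 0.979 and 1.94, again with none in replicate 1. The part of depth in these missing calls was not tested.

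Some pairs varied more between replicates than others. Gm28635/Med19 had 3.00, 10.98 and 3.77, and Ccdc146/Fam185a had 2.70, 8.03 and 2.80, the largest relative spread among open pairs. Srrd/Hps4 had 4.84, 4.79 and 4.81, the smallest along with Gm49661/Prdx2. The median coefficient of variation over open pairs was 22.6%.

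The sequences of the open pairs differed from those of open single-gene promoters in several motifs. In all, 15 motifs were searched on both strands. The ETS motif CCGGAA was in 70.9% of open pair regions and 51.8% of open single-gene windows, and in 31.2% of all single-gene windows. The YY1 motif AAGATGGC was in 16.9% and 10.6% of open promoters (7.53% of all single-gene windows), and the NRF1 motif GCGCATGCG in 7.93% and 5.44% (2.97%). The E2F motif TTCCCGC was in 31.7% and 24.5% (14.4%). TATAAA was rarer in pairs, at 17.7% and 26.7% (39.5%), as was the GATA motif AGATAA, at 21.3% and 26.1% (36.8%). CCAAT hardly differed, at 72.5% and 72.3% (75.9%). Among promoters with a CpG ratio of 0.6 or more, ETS was in 72.1% of open pairs and 54.1% of open single-gene promoters. Pair regions differ in length, so these shares are descriptions.

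Inside footprints, 8 of the 15 motifs were more frequent in pairs in each of the 3 replicates, 2 were less frequent in each and 5 were mixed. A motif counted where it lay within a footprint widened by 5 bp. ETS was found in 4.33%, 4.69% and 4.36% of footprints of pairs in replicates 1 to 3, and in 3.07% (mean) of those of single-gene promoters. YY1 had 0.75%, 0.82% and 0.72%, against a mean of 0.42%, and CCAAT 4.08%, 4.74% and 4.45%, against 3.74%. The SP motif GGGCGG was less frequent in pairs, at 15.7% against 17.3% (means), as was the E-box CAGCTG, at 0.66% against 0.78%. The others that were more frequent were NRF1, BANP, GATA, ZNF143 and HNF4. In pairs, BANP rested on 17, 19 and 19 footprints in replicates 1 to 3, GATA on 13, 17 and 13, and ZNF143 on 9, 20 and 15. The replicates cover the same regions, so agreement between them can rest on the same few sites. The BANP motif was TCTCGCGAG. That of ZNF143 was ACTACAA. That of HNF4 was CAAAGTCCA, found in only 2, 1 and 1 footprints of pairs in replicates 1 to 3 (0.022% in the mean). The mixed ones were TATA, CRE, E2F, the E-box CACGTG and NF-E2. For CRE the letters were TGACGTCA. For NF-E2 they were TGAGTCA. A match names letters and does not show which protein was bound.

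**Figure D5:**
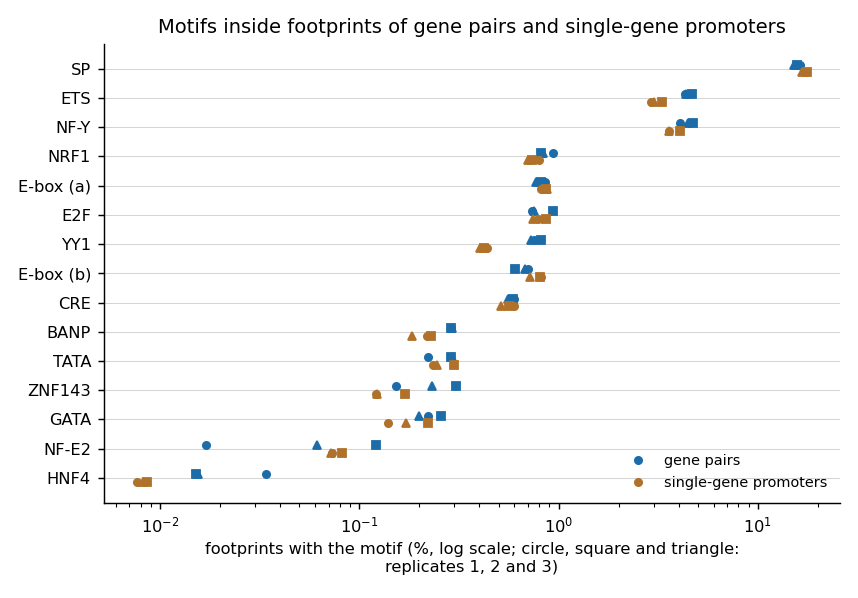
Percent of footprints that hold each of 15 motifs on a log scale, in gene pairs (blue) and single-gene promoters (brown), with circles, squares and triangles for replicates 1, 2 and 3. E-box (a) is CACGTG and E-box (b) is CAGCTG; ETS and YY1 lie to the right in pairs in each replicate, SP to the left, and the lowest entries rest on few footprints.

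The height of the peak differed with some motifs, in both directions. Open pairs with the NRF1 motif (55 of 694) had a median mean signal of 10.1, against 7.63 without it. With CCAAT (503 pairs) it was 8.32, against 6.84, and with the BANP motif (25 pairs) 9.29, against 7.72. With the ETS motif (492 pairs) it was 7.81, against 7.85, so the motif with the largest difference in share between the classes showed no difference in signal. With the GATA motif (148 pairs) it was lower, at 7.18 against 8.005, as with the E-box CAGCTG (288 pairs), at 7.53 against 8.14. With the SP motif (648 pairs) it was 7.86, against 6.47. These are descriptions over regions of the same libraries.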

How the data were processed

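DNase-seq was measured in 3 libraries of 1 group. Per the deposited notes beside the files, each sample's lists derive from its own filtered mm10 alignments, without pooling; which aligner and callers were used is not stated there. The authors' signal, scaled to depth, gives the peak cut density within each listed peak. Values under 2 fell on a grid of equal steps in each library (within 0.02 steps), and the depth in cuts was inferred from that step. The FDR values and the footprint limit the authors deposited are q-values, which estimate a false discovery rate: listed stretches lie below 0.05, and each footprint carries the same limit of 0.01, so footprints cannot be ranked.

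Gene starts were the 5′ ends of gene records in GENCODE M21, and sequence came from GRCm38.p6. No listed coordinate lay beyond a chromosome's end. Overlap of 1 bp or more made a region open; the signal was that of its strongest peak, covered width counted overlapping peaks once, and footprints counted by their centre. Regions were compared within each library, and the 3 differences were tested by an exact two-sided sign-flip permutation test. Peak numbers did not follow the inferred depth in order, and the part of depth in weak peaks was not tested. The calculations recovered the values of simulated peaks. Tools were Python 3.11.15, numpy 2.4.6, pandas 2.3.3, scipy 1.17.1, matplotlib 3.10.9 and bedtools 2.31.1.

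The members, gene lists and motifs were chosen with earlier results of these data known. Pairs were named by rule: the 5 strongest, the 5 with most footprints and the 5 with the widest cover, the 5 closest without a peak, every pair of the red cell, hepatoblast and DNA lists (examples are given), known textbook pairs (1 is not reported here), those at the 1000 bp limit, the 5 strongest open in some replicates only, up to 3 per list by symbol, and the extremes of spread. Further closed pairs were named after their values were seen. Alternatives changed the peak list, the overlap, the flank, the start, the distance limit, the comparison promoters and the replicates.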

Additional observations from a re-analysis of the deposited data

How the results depend on the processing

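The differences between pairs and single-gene promoters kept their sign under all 17 alternatives to each, and the difference in peak number between far and near pairs under all 12. The exact permutation test over 3 replicates cannot go below p = 0.25 under any of them. The share of pairs open in all 3 replicates was 89.1% with the stronger 50% of the shorter list and 89.5% with an overlap of 100 bp or more, both below the counting interval of the main value, and 93.4% with the longer list. Leaving out 1 replicate at a time gave 92.0% to 93.2% for that share and 47.1 to 49.5 percentage points for its difference from single-gene promoters. The same steps gave 0.64 to 0.87 for log2 signal, 55.5 to 62.5 bp for width, 0.143 to 0.164 for peaks, 2.40 to 2.91 for footprints and 0.562 to 0.577 for far minus near pairs. Over all alternatives the difference in the share open ran from 15.6 points (CpG weighting) to 54.7 (stronger 50%), and that in log2 signal from 0.45 (stronger 50%) to 0.98 (longer list). Settings added after the data were seen were joined peaks, unique regions, each locus once and windows per gene. For 91 named pairs, 863 recomputed mean signals moved by no more than 1 SD of the replicates and 4 by more. Of the 4, 2 came with the longer list, 1 with the stronger 50% and 1 with a flank of 250 bp. Settings that only add or drop pairs cannot change the signal of a named pair, so many of the 863 were fixed in advance. No paired analysis was possible because there is only 1 group of samples; promoter classes were compared within each library. The inferred depth has no other source, and its part in weak peaks was not tested.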
